A study of Mus musculus with 12 samples.

Results

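The mitophagy receptors and adaptors described here are 9 genes, taken as the rows of the deposited mouse heart RNA-seq table whose gene name was Pink1, Bnip3, Bnip3l, Fundc1, Phb2, Sqstm1, Optn, Tbk1 or Ulk1, out of 43686 rows in all. The samples were ventricular wall from 6 WT mice, which were Sdhaf4fl/fl littermates without Cre, and from 6 KO mice, which carried Sdhaf4fl/fl together with Ckmm-Cre and are labelled Sdhaf4-/-. The muscle creatine kinase promoter drives this Cre in heart and skeletal muscle, so the other cell types of the ventricle keep the gene, and all mice carried the floxed allele. The labels give the strain as C57BL/6 and the age as 2 months for every sample. The study's results section instead gives 6 weeks for the RNA-seq hearts. Its reporting summary lists ages for omics work of which the older is about 2 months. SDHAF4 is an assembly factor of succinate dehydrogenase, complex II of the respiratory chain, and the comparison asks how transcripts of the machinery that clears mitochondria differed once it was lost.

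Mitophagy is the removal of mitochondria by autophagy. The kinase PINK1 accumulates on damaged mitochondria and phosphorylates ubiquitin, ubiquitin ligases extend the signal, and adaptors such as p62 (Sqstm1) and optineurin (Optn) tie ubiquitin to the ATG8 proteins on the growing autophagosome. Receptors of the outer membrane (BNIP3, its paralog NIX from Bnip3l, and FUNDC1) and of the inner membrane (prohibitin 2, Phb2) bind ATG8 proteins directly, while TBK1 phosphorylates the adaptors and ULK1 starts the formation of the autophagosome. The heart is rich in mitochondria and depends on this turnover.

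Of the 9 members, 5 were lower in KO hearts (Pink1, Bnip3, Sqstm1, Ulk1 and Phb2), Bnip3l alone was higher, and Fundc1, Optn and Tbk1 did not pass the test. The calls came from edgeR's quasi-likelihood test at an adjusted p under 0.05 (Benjamini-Hochberg over the 17155 rows tested), and all 9 members passed the filter on low counts. Over all rows tested 51.1% were called, 25.6% higher and 25.5% lower. The 5 lower and 1 higher of 9 are read against these shares, with no test of the difference. The median log2 fold change (KO over WT) was -0.34 over the members and 0.002 over all rows. In 5 members no KO heart overlapped a WT heart, as in 30.1% of all rows. The study took an adjusted p under 0.05 by DESeq as differential expression. For significant differences it set stricter limits, an adjusted p under 0.005 and a change by more than 1 on the log2 scale. These stricter limits were passed by 10.2% of all rows and none of the 9 members, although 6 members had an adjusted p under 0.005. The ventricle is a mixture, and in bulk tissue fewer cells of a type cannot be told apart from less RNA per cell.

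**Figure D1:**
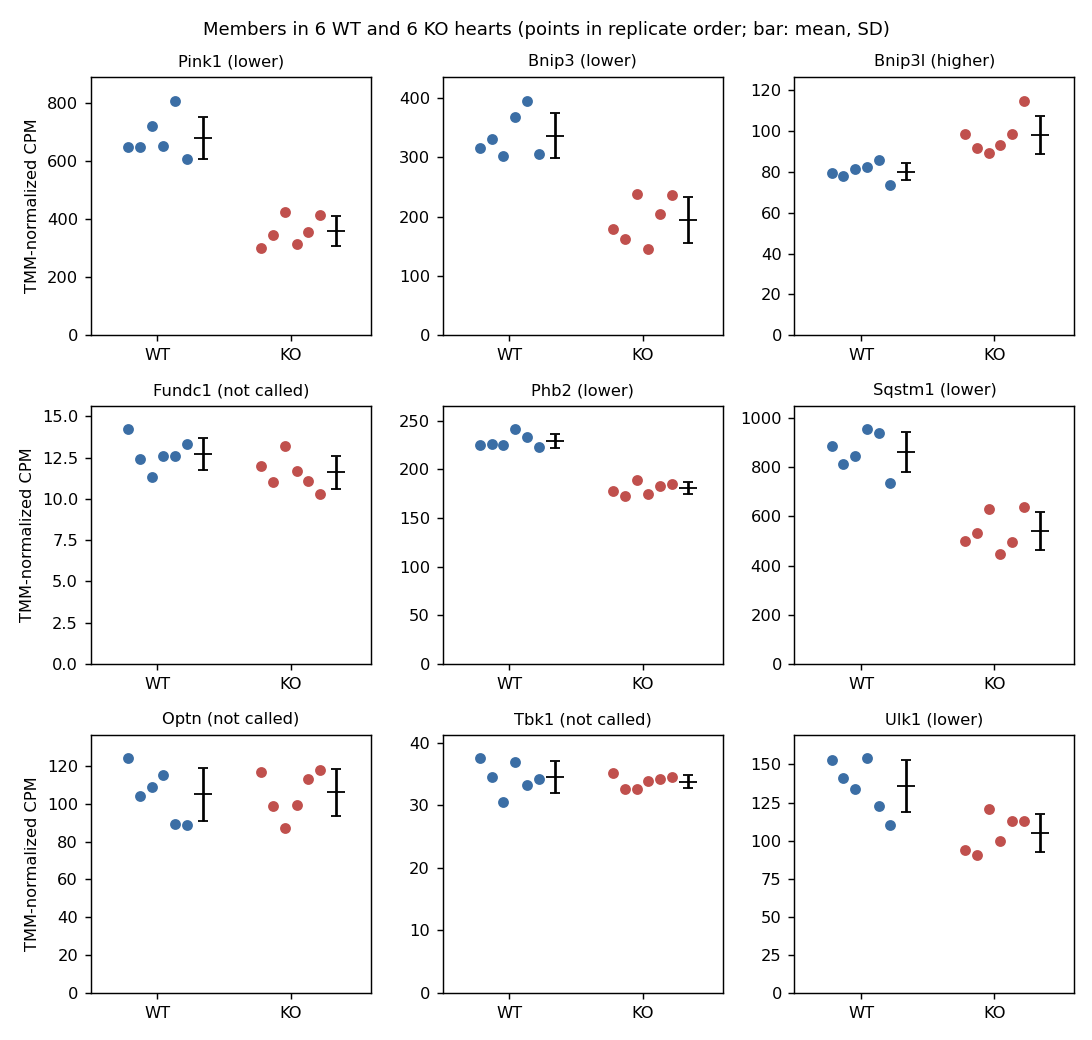
Expression of the 9 members in each heart, as CPM (counts divided by the TMM-scaled library size, linear axis from 0), with WT in blue and KO in red, 6 hearts each in replicate order, and the mean with its SD beside them. The WT and KO points are apart in Pink1, Bnip3, Bnip3l, Phb2 and Sqstm1, overlap in part in Ulk1, and overlap in Fundc1, Optn and Tbk1.

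The libraries held 23747014 to 27159228 counts in WT and 26542930 to 31393393 in KO. Sdhaf4 itself averaged 25.2 ± 5.80 CPM (counts scaled to library size by TMM; SD, n = 6) in WT and 2.40 ± 0.17 in KO, a log2 fold change of -3.39, which matches every label; WT replicate 6 held the lowest WT level, 14.3. Cardiomyocyte markers fell in 5 of 9 (median log2 fold change -0.30), with summed levels of 52604 to 57404 CPM in WT and 42733 to 58539 in KO. All 8 fibroblast markers rose, from summed levels of 1420.1 to 1670.4 CPM in WT to 2584 to 4867 in KO, and 4 of 6 endothelial markers rose (1249.8 to 1404 CPM against 1479 to 1767). Macrophage markers moved both ways (1 higher and 2 lower of 6), as did mural markers (2 higher and 1 lower of 6). Adipocyte markers and the atrial genes Sln and Myl7 did not reach the filter, with at most 11 and 9 counts in a library. The atrial gene Myl4 reached it and rose from a mean of 2.12 CPM in WT to 3.49 in KO. Its log2 fold change was 0.72 (adjusted p = 0.00515 by edgeR's quasi-likelihood test). The part of these shifts in the results that follow was not tested.

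Pink1 encodes the kinase that marks damaged mitochondria, and lies at chr4:146051338-146068546 on the minus strand of the table's C57BL/6NJ assembly. Its lowest, median and highest levels were 609.9, 650.2 and 810.0 CPM in WT hearts and 301, 352 and 425 CPM in KO hearts. Every KO heart lay below every WT heart, with KO replicate 3 highest and KO replicate 1 lowest among the KO hearts. Pink1 fell to 52.8% of WT, a log2 fold change of -0.92 ± 0.09 (SE, n = 6 and 6; edgeR's quasi-likelihood test, adjusted p = 3.55e-07), the largest fall of the 9. Of all rows tested, 6.83% had a log2 fold change at or below that of Pink1. The cardiomyocyte markers of KO replicate 3 summed to 58539 CPM, above every WT heart, and its fibroblast markers to 2912 CPM, also above every WT heart, while its Pink1 level of 425 CPM was below the lowest WT value. The part of the tissue makeup in the level of Pink1 was not tested.

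Bnip3 encodes a hypoxia-inducible receptor of the outer membrane (chr7:149223800-149244576, minus strand). WT hearts ranged from 302 to 396 CPM with a median of 323, and KO hearts from 145 to 239 with a median of 192. All KO hearts were below all WT hearts, and KO replicates 3 and 6 were the highest of them. Bnip3 fell to 57.9% of WT (log2 fold change -0.79 ± 0.12, adjusted p = 8.48e-05 by edgeR's quasi-likelihood test).

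Bnip3l encodes NIX, the paralog of BNIP3 known for clearing mitochondria from maturing red cells (chr14:64506197-64535605, minus strand). In WT hearts the level ran from 73.8 to 85.9 CPM (median 80.3) and in KO hearts from 89.4 to 115 CPM (median 95.9). All KO hearts lay above all WT hearts, and the highest level, in KO replicate 6, was apart from the rest. Bnip3l rose to 122% of WT (log2 fold change 0.29 ± 0.06, adjusted p = 0.000686 by edgeR's quasi-likelihood test), and the log2 fold change was 0.23 without KO replicate 6. The mouse annotation lists a pseudogene, Bnip3l-ps, and how reads shared with it were counted is not given in the sources used here. The erythroid markers Hba-a1 and Alas2 had log2 fold changes of 0.22 and 0.29 that did not pass the test (adjusted p = 0.542 and 0.409, edgeR's quasi-likelihood test).

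The paralogs therefore moved in opposite directions within the same hearts. The ratio of Bnip3 to Bnip3l, taken from FPKM so that gene length enters, had a lowest, median and highest value of 7.0, 7.89 and 8.68 in WT and of 2.93, 3.65 and 5.03 in KO. No KO heart reached the lowest WT ratio, and KO replicate 3 came closest. The mean log2 ratio was 2.98 ± 0.11 (SD, n = 6) in WT and 1.88 ± 0.27 in KO, a difference of -1.09. Since Bnip3 was lower and Bnip3l higher in every KO heart, the separation of the ratios follows from those values and adds no evidence of its own. A ratio within a heart does not depend on how the libraries are scaled to each other.

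Fundc1 encodes the third outer membrane receptor of the set, known from hypoxia-induced mitophagy (chrX:12735353-12753174, minus strand). Its lowest, median and highest levels were 11.3, 12.6 and 14.2 CPM in WT hearts and 10.3, 11.4 and 13.2 CPM in KO hearts. The groups overlapped, with 3 KO hearts below the lowest WT heart. The log2 fold change was -0.14 ± 0.08 (95% interval -0.31 to 0.03; adjusted p = 0.167 by edgeR's quasi-likelihood test).

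Phb2 encodes prohibitin 2, a scaffold protein of the inner membrane that binds ATG8 proteins once the outer membrane is ruptured (chr6:131399356-131403970, plus strand). WT hearts ranged from 223 to 241 CPM with a median of 225, and KO hearts from 173 to 189 with a median of 181. The hearts of each genotype lay close together and all KO hearts were below all WT hearts. Phb2 fell to 78.9% of WT (log2 fold change -0.34 ± 0.04, adjusted p = 4.23e-06 by edgeR's quasi-likelihood test), a smaller change than that of Ulk1 but with a smaller error. An unnamed row on the opposite strand shares 1378 bases with Phb2 and held 173 to 296 counts per library, against at least 4620 for Phb2; without strand, reads of such overlapping rows cannot be told apart. Its partner Phb (prohibitin), which forms the ring complex with PHB2, fell from 167 ± 6.05 to 134 ± 3.52 CPM (log2 fold change -0.32 ± 0.04, adjusted p = 7.05e-06 by edgeR's quasi-likelihood test), a fall that differed from that of Phb2 by less than the SE of either.

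**Figure D2:**
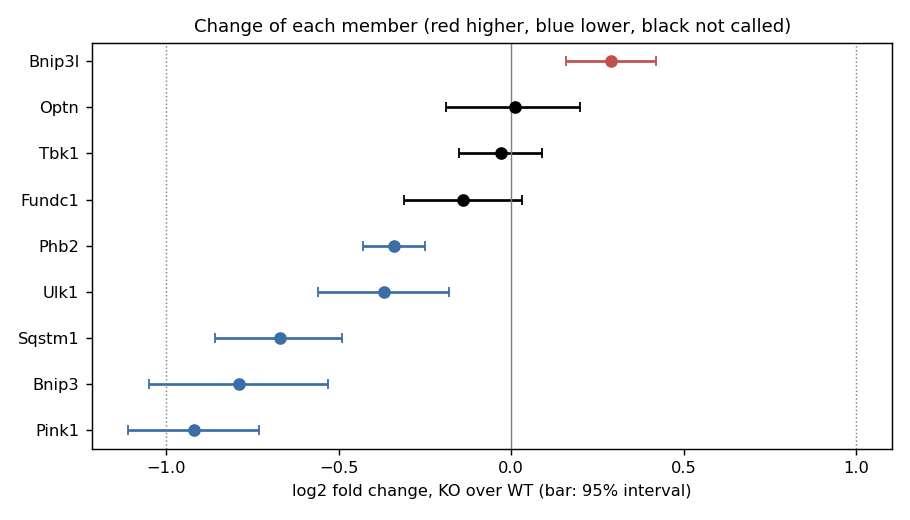
Log2 fold change of each member, KO over WT, with its 95% interval (horizontal axis), for the 6 WT and 6 KO hearts; red is higher in KO, blue is lower and black did not pass the test, and dotted lines mark the study's limit of 1 in either direction. Pink1 (-0.92) and Bnip3 (-0.79) come closest to that limit and Bnip3l (0.29) is the only member on the higher side that passed the test.

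Sqstm1 encodes p62, an adaptor that binds ubiquitin and ATG8 proteins and is itself degraded by autophagy (chr11:50826600-50839323, minus strand). In WT hearts the level ran from 734 to 953 CPM (median 866) and in KO hearts from 448 to 638 CPM (median 517). Every KO heart was below every WT heart, with KO replicates 6 and 3 the highest of the KO hearts and WT replicate 6 the lowest of the WT hearts. Sqstm1 fell to 62.7% of WT (log2 fold change -0.67 ± 0.09, adjusted p = 8.53e-06 by edgeR's quasi-likelihood test). The antisense row 3010026O09Rik, which overlaps its end over 750 bases, held 33 to 88 counts per library.

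Optn encodes optineurin, the adaptor that works with TBK1 (chr2:2129078-2179916, minus strand). Its lowest, median and highest levels were 88.9, 107 and 124 CPM in WT hearts and 87.3, 106 and 118 CPM in KO hearts. The groups covered nearly the same range. The log2 fold change was 0.01 ± 0.09 (95% interval -0.19 to 0.20; adjusted p = 0.961 by edgeR's quasi-likelihood test), and its sign changed with the scaling. An unnamed antisense row inside Optn held 69 to 157 counts per library. Sqstm1 and Optn, both ubiquitin-binding adaptors, thus had intervals of the fold change that do not overlap, Sqstm1 from -0.86 to -0.49.

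Tbk1 encodes the kinase that phosphorylates optineurin and p62 (chr10:129077281-129116197, minus strand). WT hearts ranged from 30.5 to 37.5 CPM with a median of 34.3, and KO hearts from 32.6 to 35.2 with a median of 34. All KO values fell inside the WT range. The log2 fold change was -0.03 ± 0.06 (95% interval -0.15 to 0.09; adjusted p = 0.709 by edgeR's quasi-likelihood test).

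Ulk1 encodes the kinase that starts autophagy under the control of AMPK and mTOR (chr5:117714034-117741512, minus strand). In WT hearts the level ran from 110.3 to 154 CPM (median 137) and in KO hearts from 90.6 to 121 CPM (median 106). The groups overlapped, since only 3 of the 6 KO hearts were below the lowest WT heart. Ulk1 fell to 77.5% of WT (log2 fold change -0.37 ± 0.09, adjusted p = 0.00257 by edgeR's quasi-likelihood test).

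Among the KO hearts the highest levels of the 5 members that fell recurred in the same few hearts, whereas the lowest heart differed between members. In CPM, KO replicate 3 held the highest KO level in 4 of the 5 and the next highest in the other. KO replicate 6 was highest or next highest in 4 of the 5. That order depends in part on the scaling. In deposited FPKM the highest KO level of Bnip3 was in replicate 6 (338, against 336 in replicate 3). That of Phb2 was in replicate 5 (202, against 199 in replicate 3 and 196 in replicate 6). The lowest KO level was in replicate 1 for Pink1, in replicate 4 for Bnip3 and Sqstm1, and in replicate 2 for Phb2 and Ulk1. KO replicates 3 and 6 also had the lowest summed fibroblast markers of the KO hearts, 2912 and 2584 CPM against 3852 to 4867 in the other 4. That relation was not tested. Among the WT hearts, replicate 6 held the lowest CPM in 6 of the 9 members, and it was also the WT heart with the least Sdhaf4. In deposited FPKM the lowest WT level of Phb2 was instead in replicate 3 (241, against 249 in replicate 6). That of Optn was in replicate 5 (47.3, against 49.5 in replicate 6). Each of the 6 calls stood when any single heart was left out.

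**Figure D3:**
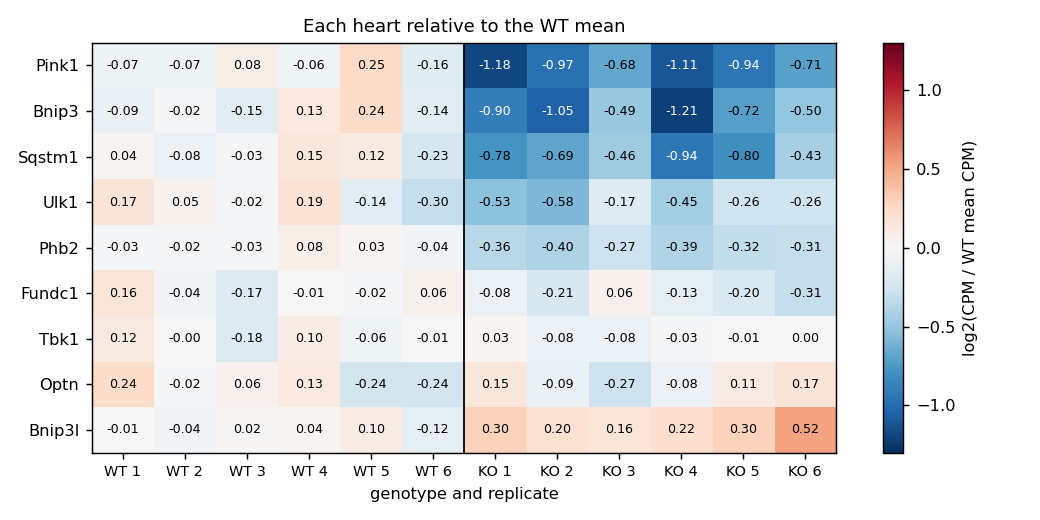
Heat map of log2(CPM over the WT mean CPM) for each member (rows, in order of fold change) in each of the 12 hearts (columns, genotype and replicate), blue for below and red for above the WT mean, with the value printed in each cell. Pink1 in the KO hearts runs from -1.18 to -0.68 and Bnip3 from -1.21 to -0.49, with replicates 3 and 6 the palest of the KO columns in both, whereas Bnip3l is above the WT mean in all KO hearts.

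Per gene length the members spanned a wide range. In WT hearts the mean FPKM (reads scaled to gene length and library size, as deposited) was 704 ± 55.9 (SD, n = 6) for Sqstm1, 490.2 ± 49.7 for Bnip3, 339 ± 30.9 for Pink1 and 249 ± 6.36 for Phb2. Below these came Ulk1 at 105 ± 12.7, Bnip3l at 62.1 ± 2.12, Optn at 56.9 ± 7.38, Fundc1 at 24.5 ± 2.05 and Tbk1 at 11.4 ± 0.906. Only the neighbours Bnip3l and Optn overlapped in range. In KO hearts the FPKM of Phb2 (197 ± 4.04) was above that of Pink1 (179 ± 20.7), although their ranges overlapped, as did those of Ulk1 and Bnip3l. The order depends on the gene length used: divided by the deposited length instead, Pink1 came before Bnip3 in WT, at 296 against 213 CPM per kilobase, and Optn (40.1) came before Bnip3l (27.0) and Ulk1 (26.0). In KO hearts this length put Pink1 (156) back above Phb2 (76.0).

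**Figure D4:**
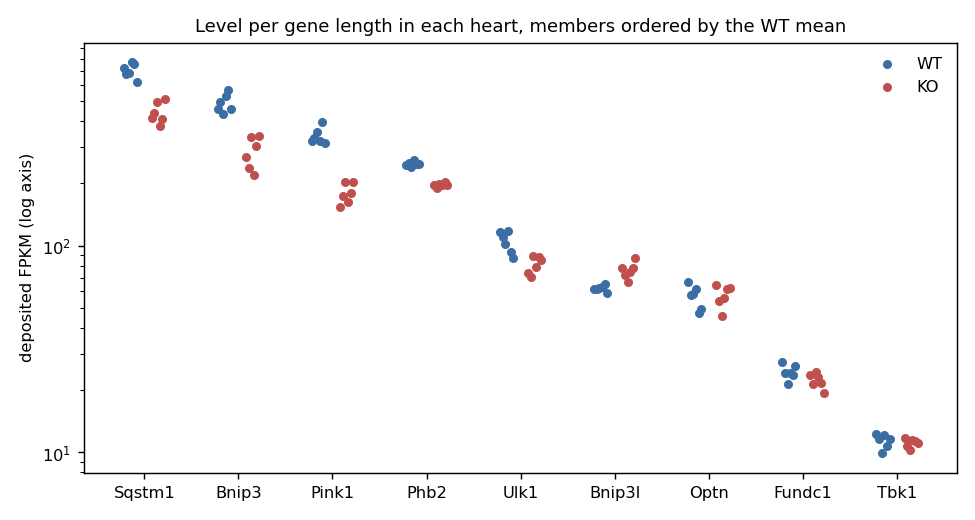
Deposited FPKM of each member in each heart (log axis), members ordered by their WT mean, WT in blue and KO in red, 6 hearts each. The 4 most abundant members, Sqstm1, Bnip3, Pink1 and Phb2, were all lower in KO, while Tbk1, the least abundant at 11.4 FPKM in WT, was at 11.2 in KO.

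The promoters are shown because Bnip3 is a textbook target of the hypoxia-inducible factors, and Hif1a, which encodes the regulated subunit of HIF-1, rose from 98.0 ± 6.52 to 178 ± 15.5 CPM in these hearts (log2 fold change 0.86 ± 0.06, adjusted p = 8.5e-09 by edgeR's quasi-likelihood test). The windows run from 250 bases before to 50 after the gene start on GRCm38.p6 (RefSeq), which is another assembly than that of the table, and 8 of the 9 members had one, all but Bnip3l. Capitals mark the core of the hypoxia response element, ACGTG or GCGTG, on either strand, so that it also appears as CACGT or CACGC. Bnip3, Pink1 and Sqstm1, the 3 members with the largest falls, read as follows, with Bnip3 at chr7:138909457-138909756, Pink1 at chr4:138326247-138326546 and Sqstm1 at chr11:50210771-50211070, all on the minus strand.
Bnip3: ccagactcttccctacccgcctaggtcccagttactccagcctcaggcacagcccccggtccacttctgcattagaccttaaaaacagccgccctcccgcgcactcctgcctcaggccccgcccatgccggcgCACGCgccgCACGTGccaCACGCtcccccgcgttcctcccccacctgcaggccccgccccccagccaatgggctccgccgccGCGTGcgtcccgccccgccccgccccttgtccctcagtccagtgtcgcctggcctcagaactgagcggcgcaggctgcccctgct
Pink1: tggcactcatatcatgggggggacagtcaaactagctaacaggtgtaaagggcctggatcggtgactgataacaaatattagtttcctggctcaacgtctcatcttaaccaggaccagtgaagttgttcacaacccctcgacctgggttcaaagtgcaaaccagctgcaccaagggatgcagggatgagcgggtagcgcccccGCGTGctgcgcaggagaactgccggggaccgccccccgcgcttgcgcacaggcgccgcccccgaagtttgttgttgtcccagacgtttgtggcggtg
Sqstm1: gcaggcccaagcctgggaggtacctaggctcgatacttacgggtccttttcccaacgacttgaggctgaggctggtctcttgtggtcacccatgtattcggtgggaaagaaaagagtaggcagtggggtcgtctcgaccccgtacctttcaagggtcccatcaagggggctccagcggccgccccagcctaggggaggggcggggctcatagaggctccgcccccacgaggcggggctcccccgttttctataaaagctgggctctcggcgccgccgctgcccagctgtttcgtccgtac

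Bnip3 held 5 matches, of which 2 lie on opposite strands of the palindrome CACGTG, Pink1 held 1 and Sqstm1 held 0. Of the other members that fell, Phb2 and Ulk1 held 1 each. Of those that did not pass the test, Tbk1 held 5, Optn 3 and Fundc1 0. The core is common, since 43.8% of the 32851 promoter windows held at least 1 match. The E-box CACGTG stood in the windows of Bnip3 and Tbk1 and in 7.15% of all windows. The motif of lysosomal genes known as CLEAR (0.326% of windows) and the antioxidant response core (TGACNNNGC, 12.4%) had no match in the 8 windows. These matches are descriptions of letters and not of binding.

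Of 171 tested genes in 9 lists around the members, 53 (31.0%) were higher and 66 (38.6%) lower, beside 25.6% and 25.5% of all rows, and the median log2 fold change was -0.04. The counts of the single lists are descriptions read against the same shares, since 51.1% of all rows were called. Of 16 other receptors and adaptors, 3 rose and 8 fell (median -0.10). Calcoco1, an adaptor related to NDP52, fell from 245 ± 7.71 to 149 ± 22.8 CPM (log2 fold change -0.71), and Nbr1, an adaptor of ubiquitinated cargo, fell by 0.25 on the log2 scale. Fundc2, the paralog of Fundc1, fell by 0.28 on the log2 scale. Smurf1, a ubiquitin ligase, Ambra1, a partner of the autophagy machinery, and Wdfy3, a scaffold of selective autophagy, rose by log2 fold changes of 0.46, 0.32 and 0.21. The outer membrane receptors Bcl2l13 and Fkbp8 did not pass the test, at log2 fold changes of 0.01 and -0.03 (adjusted p = 0.886 and 0.635, edgeR's quasi-likelihood test).

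Around PINK1 and the ubiquitin signal, 10 of 23 genes rose and 8 fell (median -0.02). Pptc7, a mitochondrial phosphatase that restrains BNIP3 and NIX protein, rose from 28.8 ± 1.96 to 43.4 ± 3.60 CPM (log2 fold change 0.59, adjusted p = 8.76e-07 by edgeR's quasi-likelihood test). Pgam5, a phosphatase that acts on FUNDC1, rose by a log2 fold change of 0.32 and Tomm70a, an import receptor, by 0.25. Mfn1 (mitofusin) and Rhot2 (a Miro protein that links mitochondria to transport) fell by 0.30 and 0.39 on the log2 scale. Their paralogs Mfn2 and Rhot1 went the other way, with log2 fold changes of 0.17 and 0.22 that passed the test. The ubiquitin-specific proteases of the list did not move together: Usp15 fell by 0.24 on the log2 scale, Usp35 rose by a log2 fold change of 0.48, and Usp30 (-0.06, adjusted p = 0.561 by edgeR's quasi-likelihood test) and Usp8 (0.10) did not pass the test. Usp35, Usp8, Mfn2 and Rhot1 were added after their values were seen, to complete their classes.

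Among 22 genes of the ULK1 complex and its upstream kinases, 8 rose and 11 fell (median -0.18). Both beta subunits of AMPK passed the test, in opposite directions. Prkab1 fell from 42.9 ± 4.96 to 23.3 ± 1.82 CPM (log2 fold change -0.88, adjusted p = 7.75e-08) and Prkab2 rose from 88.7 ± 6.14 to 172 ± 23.4 CPM (log2 fold change 0.95, adjusted p = 9.02e-08; both by edgeR's quasi-likelihood test). The alpha and gamma subunits of AMPK were added after their values were seen. Both alpha subunits, Prkaa1 and Prkaa2, rose, by log2 fold changes of 0.16 and 0.35. Of the gamma subunits, Prkag2 rose (log2 fold change 0.66), Prkag3 fell (-0.66) and Prkag1 (-0.16) did not pass the test. Atg101, a subunit of the ULK1 complex, rose by a log2 fold change of 0.92, and Mtor, which restrains ULK1, by 0.62. Stk11 (LKB1), the kinase upstream of AMPK, fell by 0.46 on the log2 scale, and Fbxw7, a ubiquitin ligase subunit, by 0.37.

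In the lipid kinase, ATG2, ATG9 and WIPI group, 4 of 17 genes rose and 8 fell (median -0.09). Wdr45 (WIPI4) fell from 66.2 ± 4.95 to 37.3 ± 4.07 CPM (log2 fold change -0.83), and Uvrag and Wipi2 fell by 0.56 and 0.35 on the log2 scale. Wipi1, Becn1 (the gene of Beclin 1) and Atg2b, which encodes a lipid transfer protein, rose by log2 fold changes of 0.25, 0.19 and 0.21, although Atg2b lost its call with limma-trend on FPKM (adjusted p = 0.051). Of 15 genes of ATG8 conjugation and the ATG8 family, 2 rose and 5 fell (median -0.12). Atg10, an E2-like enzyme, fell by 0.75 on the log2 scale, Gabarap by 0.23 and Gabarapl1 by 0.30, the last with an adjusted p of 0.024 (edgeR's quasi-likelihood test) that was lost without KO replicate 2 (0.0540) or KO replicate 4 (0.0503). Atg7, an E1-like enzyme, fell by 0.22 on the log2 scale, whereas the protease Atg4a and the E2-like enzyme Atg3 rose by log2 fold changes of 0.71 and 0.20. Map1lc3a had a log2 fold change of -0.04 (adjusted p = 0.648, edgeR's quasi-likelihood test), and Map1lc3b was not analysed here.

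For the fusion of autophagosomes with lysosomes, 5 of 18 genes rose and 6 fell (median -0.08). The SNARE Ykt6 rose by a log2 fold change of 0.55, Vps18 by 0.31 and Tecpr1 by 0.28, while the SNARE Snap29 (log2 fold change -0.40), the Rab regulator Tbc1d17 (-0.47) and the lysosomal membrane protein Lamp2 (-0.26) fell. Of 16 transcription factors of autophagy genes, 6 rose and 3 fell (median 0.10). Beside Hif1a, Ddit3 (CHOP, of the stress response) rose by a log2 fold change of 0.95 and Nfkb1 by 0.39. Foxo4 fell by 0.52, Mitf by 0.32 and Foxo1 by 0.17 on the log2 scale, the last with an adjusted p of 0.0239 (edgeR's quasi-likelihood test) that became 0.0524 without KO replicate 2 and 0.103 with limma-trend on FPKM.

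Other proteins of the outer membrane, the surface on which most receptors sit, rose in 13 and fell in 11 of 33 (median 0.05). Hk1, a hexokinase bound to mitochondria, rose from 119 ± 15.2 to 303 ± 45.0 CPM (log2 fold change 1.35), and Maob (monoamine oxidase B) fell from 57.8 ± 2.54 to 9.51 ± 2.87 CPM (log2 fold change -2.60). Cyb5r3 and Mtch1 rose by log2 fold changes of 0.64 and 0.58. Samm50 and Mtx1, of the machinery that inserts barrel proteins, fell by 0.46 and 0.55 on the log2 scale. The related Mtx2 rose by a log2 fold change of 0.16, and Mtx3 (0.05) did not pass the test. Mtx2 and Mtx3 were added after their values were seen. Of 11 partners of the prohibitins in the inner membrane, 2 rose and 6 fell (median -0.15). The protease subunits Afg3l2 and Spg7 rose by log2 fold changes of 0.64 and 0.19, and the cristae organizing proteins Chchd3 and Apoo fell by 0.68 and 0.33 on the log2 scale. Immt, of the same class, fell by less (log2 fold change -0.15), and Apool (-0.10) did not pass the test. Immt and Apool were added after their values were seen. Of the 57 list genes that the naming rule chose, 33 share their stretch of the genome with another row, so their counts are uncertain where the strand was not used.

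**Figure D5:**
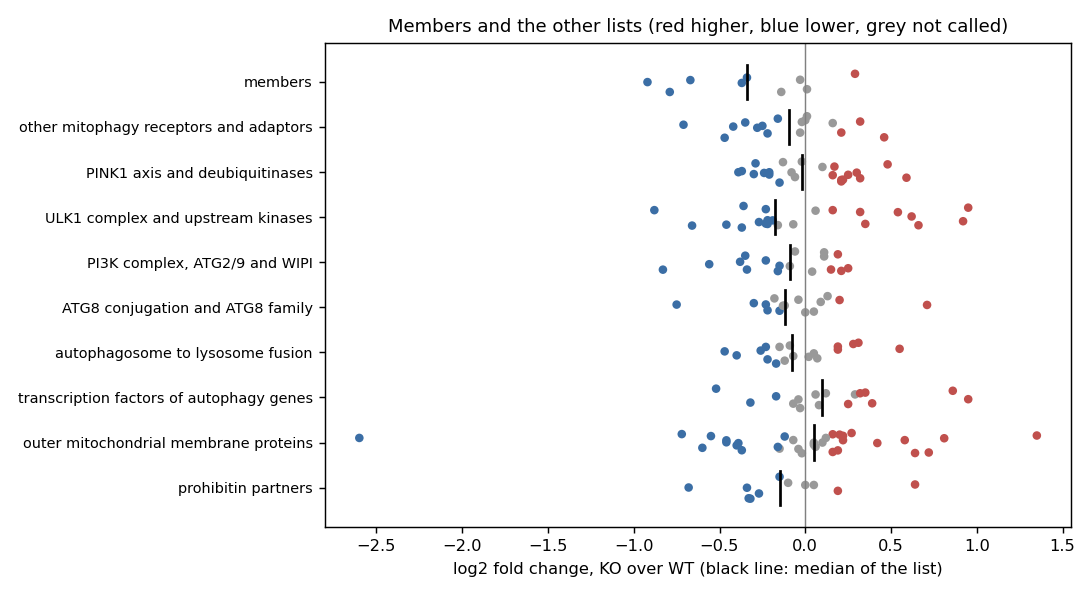
Log2 fold change (KO over WT) of every tested gene in the 9 members and in each of the 9 lists, red for higher, blue for lower and grey for not past the test, with the median of each list as a black line. The median of the members is -0.34 and those of the 9 lists lie between -0.18 and 0.10, with called genes on both sides of 0 in every list.

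Over the 12 libraries, the named gene whose log2 CPM ran most nearly in parallel was sought for each member among 10241 rows. For Sqstm1 it was Echdc2 (Pearson r = 0.994), for Pink1 Tcta (r = 0.993), for Phb2 Urod (r = 0.993), for Bnip3 Tacc2 (r = 0.977), for Bnip3l Hspb2 (r = 0.962) and for Ulk1 Rabl6 (r = 0.961). After the genotype means were subtracted, r was 0.977 for Sqstm1 with Echdc2, 0.955 for Pink1 with Tcta and between 0.876 and 0.916 for the other 4. The members that did not pass the test had their closest matches at r = 0.886 (Optn with Myo10), 0.876 (Fundc1 with Clcn4) and 0.827 (Tbk1 with Nde1). These are the highest of many correlations over libraries that share their depth and tissue makeup, given as descriptions.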

How the data were processed

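RNA-seq libraries of 6 WT and 6 KO ventricles were grouped by the sample labels, which do not say that replicates of a genotype came from separate litters, so p-values measure the spread between these samples. The authors purified poly-A mRNA, counted reads per gene with HTSeq after alignment (HISAT2 2.0.5 per the submitters' processing notes, which name mm10) and deposited raw counts. The authors also deposited FPKM for each library. The gene identifiers and coordinates belong to the C57BL/6NJ assembly. The length behind FPKM was within 1% of the deposited gene length for 14574 of 27883 rows with counts. The strand setting is not given in the sources used here. Columns of the authors' group means, fold changes and p-values were not used.

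Counts were tested in R 4.3.3 with edgeR 4.0.16 (filterByExpr, TMM, robust quasi-likelihood fit on genotype, Benjamini-Hochberg over 17155 rows), and a call needed an adjusted p under 0.05. The SE is the fold change over the root of the F statistic, and intervals are at 95%. On simulated counts for this comparison (17155 rows, 16679 tested), 98 of 100 genes changed by 1 and 76 of 100 changed by 0.5 on the log2 scale were recovered, with 12 false calls. Only these genes were changed, equally up and down and none with low counts, whereas 51.1% of the real rows were called. The rates in the real data may therefore differ. Alternatives used DESeq2 1.42.0 and limma 3.58.1 (FPKM with a pseudocount of 0.1). The smallest chi-square per degree of freedom between libraries of a genotype was 7.41, so none was treated as a copy. The members and lists were chosen with earlier results of these data known. Named in the text are all members, Sdhaf4, in each list the 3 genes of smallest p in each direction among those called, further genes whatever their p (Usp30, Bcl2l13, Fkbp8, Map1lc3a, Map1lc3b and Gabarapl1), and for each member the 1 named row of at least 5 CPM with the highest correlation. Usp8, Usp35, Mfn2, Rhot1, Mtx2, Mtx3, Immt, Apool, Prkaa1, Prkaa2 and the 3 Prkag genes were added after their values were seen. The cell type markers and the erythroid genes were described beside the results. A gene of the lists is not reported here and was left out of their counts.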

Additional observations from a re-analysis of the deposited data

Results flagged for a closer look

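A sample was singled out where it lay farther from the other 5 hearts of its genotype than Dixon's 95% limit for 6 samples. This held in 8 of 136 groups of values examined, where chance gives about 6.8, and in 1 group among the members. That was Bnip3l, at 115 CPM in KO replicate 6 against 89.4 to 98.8 in the other KO hearts. Sdhaf4 was at 2.73 CPM in KO replicate 1 against 2.25 to 2.41.

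KO replicate 6 was also high for Atg101, at 60.8 CPM against 41.6 to 48.6, and for Cyb5r3, at 205 CPM against 174 to 181. KO replicate 3 was high for Maob, at 14.9 CPM against 6.87 to 9.78, for Mtx1, at 15 CPM against 12.6 to 13.3, and for Apoo, at 97.7 CPM against 75.7 to 82.4. Atg10 was low in WT replicate 4, at 20.4 CPM against 24.0 to 25.6. The causes were not tested.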

How the results depend on the processing

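The 6 calls among the members kept their direction and stayed past the threshold under the 11 alternatives (DESeq2, its size factors, library size alone, upper quartile scaling, limma-voom, limma-trend on FPKM, no robust fit, no filter, at least 10 counts in every library, no unannotated loci, and a replicate block) and without any single heart. Log2 fold changes over these ran from -0.98 to -0.87 for Pink1, -0.86 to -0.72 for Bnip3, 0.23 to 0.31 for Bnip3l, -0.36 to -0.33 for Phb2, -0.73 to -0.62 for Sqstm1 and -0.42 to -0.33 for Ulk1. At the study's stricter limits the count of members was 0 higher and 0 lower.

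Optn changed sign, to -0.00394 with upper quartile scaling, -0.00255 without unannotated loci, and between -0.04 and 0.05 when a heart was left out. So did Bcl2l13 (-0.02 to 0.04) and Fkbp8 (-0.06 to 0.0031) when a heart was left out. Of the genes of the lists, 50 to 54 were higher and 59 to 69 lower over the same settings. Gabarapl1 lost its call without the filter, under the replicate block and without KO replicate 2 or 4, Atg2b lost it on FPKM, and Foxo1 on FPKM and without KO replicate 2. The causes were not tested.

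The replicate numbers did not pair the hearts: deviations from the genotype means correlated between -0.1623 and 0.0243 for hearts with the same number, and only number 3 had its best match in its own number. Under the replicate block 1 member was higher and 5 lower, with 51 and 60 list genes and 4123 and 4110 rows in all. The mean log2 ratio of Bnip3 to Bnip3l differs by -1.09 under any pairing of equal groups, so the block could not change it. Without single hearts the difference ran from -1.18 to -1.02. Of the members, Fundc1 rests on the fewest counts (285 to 400 per library).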
